A study of Mus musculus with 2 samples.

Results

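Translation initiation factor genes were examined for acetylation of histone H4 at lysine 16 (H4K16ac) in mouse macrophages with and without the acetyltransferase KAT8. The set held 53 of 21883 protein-coding genes: every RefSeq symbol that begins with Eif and a digit, leaving out 3 symbols that fit this pattern. The 53 genes were divided by the factor in their symbol into eIF1 (5 genes), eIF2 (7), eIF2B (5), eIF3 (14), eIF4 (17), eIF5 (4) and eIF6 (1). The assay was CUT&Tag, whose antibody brings a transposase to the modified histone. Bone marrow-derived macrophages, primary cells grown from bone marrow with M-CSF (20 ng/ml), had all been given R848 (100 ng/ml), an agonist of the endosomal receptor TLR7, for 2 h. The genotypes were WT (wild type) and KAT8-cKO (KAT8-deficient), each with 1 library and 1 peak list. No unstimulated library was analysed here, and the sources used here give no strain, age, number of animals or Cre driver. With 1 library per group neither a test nor a p-value could be had, and every difference is between these 2 libraries.

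Initiation factors bring the small ribosomal subunit, the initiator tRNA and an mRNA together at a start codon. The cap of the mRNA is bound by eIF4E, which joins the helicase eIF4A on the scaffold eIF4G. The large complex eIF3 sits on the small subunit with eIF1 and eIF1A. eIF2 carries the initiator tRNA and is recharged with GTP by eIF2B, a step that stress kinases block by phosphorylating the alpha subunit of eIF2. H4K16ac is an active mark that loosens chromatin, and KAT8 places most of it in mammalian cells. Macrophages activated through Toll-like receptors regulate cap-dependent initiation through the kinases mTOR and MNK.

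Many of the peaks covered bases just before the start of a gene, and 7 such stretches are shown. They were taken from the RefSeq promoter table (GRCm38.p6, the assembly behind mm10) and run 5′ to 3′ on the strand of the gene, up to the annotated edge of the gene. Capitals mark exact matches on either strand to the motif letters CCGGAAG (ETS), AAGATGGC (YY1), GGGCGG (SP), CCAAT and CACGTG (E-box), and to the NRF1 motif. Matches can overlap, and a match is a description of letters and not a bound site. Eif2ak4 and Eif1 are shown for peaks of about equal strength in both lists, Eif2ak3 and Eif5 for peaks weaker in KAT8-cKO, and Eif2s2, Eif4e and Eif1ax for peaks called in WT only.
Eif2ak4, chr2:118388367-118388582, plus strand: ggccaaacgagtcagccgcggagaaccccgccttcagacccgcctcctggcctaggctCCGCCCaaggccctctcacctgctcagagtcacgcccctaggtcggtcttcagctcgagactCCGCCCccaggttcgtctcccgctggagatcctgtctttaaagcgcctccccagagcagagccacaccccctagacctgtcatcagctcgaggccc
Eif1, chr11:100319699-100319948, plus strand: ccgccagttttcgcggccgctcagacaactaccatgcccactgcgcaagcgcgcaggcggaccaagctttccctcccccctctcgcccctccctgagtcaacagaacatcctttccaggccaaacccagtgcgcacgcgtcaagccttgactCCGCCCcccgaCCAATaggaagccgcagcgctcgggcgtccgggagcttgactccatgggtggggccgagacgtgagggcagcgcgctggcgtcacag
Eif2ak3, chr6:70844265-70844483, plus strand: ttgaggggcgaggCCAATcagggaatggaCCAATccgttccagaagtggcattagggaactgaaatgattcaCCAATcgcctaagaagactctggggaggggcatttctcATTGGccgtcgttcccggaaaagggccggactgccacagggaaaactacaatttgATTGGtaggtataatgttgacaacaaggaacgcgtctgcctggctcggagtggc
Eif5, chr12:111537851-111538100, plus strand: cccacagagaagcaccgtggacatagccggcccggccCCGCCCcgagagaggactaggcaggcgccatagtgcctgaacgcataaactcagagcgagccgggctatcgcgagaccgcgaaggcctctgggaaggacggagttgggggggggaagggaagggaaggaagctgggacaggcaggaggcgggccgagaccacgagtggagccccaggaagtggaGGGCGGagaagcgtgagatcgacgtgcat
Eif2s2, chr2:154892907-154893156, minus strand: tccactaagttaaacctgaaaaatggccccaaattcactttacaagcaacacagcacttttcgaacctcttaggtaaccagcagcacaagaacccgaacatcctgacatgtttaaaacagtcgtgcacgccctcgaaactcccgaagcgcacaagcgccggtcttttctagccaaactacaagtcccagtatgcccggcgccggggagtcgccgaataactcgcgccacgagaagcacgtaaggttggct
Eif4e, chr3:138525941-138526190, plus strand: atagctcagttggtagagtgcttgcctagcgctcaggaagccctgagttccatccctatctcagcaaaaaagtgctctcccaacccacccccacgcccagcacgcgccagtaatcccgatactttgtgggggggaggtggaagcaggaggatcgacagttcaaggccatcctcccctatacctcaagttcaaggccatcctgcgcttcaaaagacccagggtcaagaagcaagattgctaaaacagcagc
Eif1ax, chrX:159371928-159372177, plus strand: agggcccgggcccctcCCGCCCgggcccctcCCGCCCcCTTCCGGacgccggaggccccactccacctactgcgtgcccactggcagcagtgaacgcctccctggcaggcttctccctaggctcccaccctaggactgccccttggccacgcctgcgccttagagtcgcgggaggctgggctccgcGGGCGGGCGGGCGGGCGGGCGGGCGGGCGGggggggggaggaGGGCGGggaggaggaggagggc

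The stretches differ in what they hold. Of the 250 bases before its start, Eif2ak3 has 6 CCAAT matches, of which the match 20 bases before the start lies past the printed run. Eif1ax has 10 overlapping or separate SP matches and 1 ETS match, Eif1 has 1 CCAAT and 1 SP match, and Eif2ak4 and Eif5 have 2 SP matches each. Eif2s2 and Eif4e hold none of these motifs. Peaks of both lists covered all 250 bases at Eif2ak4, Eif1, Eif2ak3 and Eif5. The WT peak covered 141 of 250 bases at Eif2s2, 93 at Eif4e and 250 at Eif1ax, and KAT8-cKO peaks covered 0 bases at all of these 3 genes.

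The WT list held 58229 peaks and the KAT8-cKO list 55149, with a median fold over the peak caller's background of 2.90 and 2.78. Strength is given here as −log10 q, minus the log10 of the false discovery rate that the authors' peak caller gave a peak. In each list 47.0% of peaks had −log10 q 1.3 or more, and the lowest −log10 p was 2.01, so many weak peaks were listed. Peaks with −log10 q 5 or more, called strong here, numbered 4147 and 2679. The depth is unknown, as no read total was given, and a peak's fold and q-value describe it within its own library. Values of both lists set side by side are therefore no measure of the change in acetylation, and fewer cells with the mark cannot be told apart from less of it per cell. A list of acetylation peaks gives no check of the Kat8 deletion itself. Of 12 macrophage markers, 10 had a gene-end peak in WT (83.3%, against 46.8% of all genes) and 5 in KAT8-cKO (41.7%, against 43.3%). None reached −log10 q 5 (the highest was 3.83, at Tyrobp), and Lyz2 had no peak in either list. Of the same number of T cell, B cell and neutrophil markers (6 each), 3, 2 and 2 had one in WT (50%, 33.3% and 33.3%) and 1 each in KAT8-cKO (16.7%). Their part in the results was not tested.

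Most initiation factor genes had an H4K16ac peak at a gene end in both libraries. Here marked means that any peak touched the 1 kb on either side of a gene end. In WT 45 of 53 genes (84.9%) were marked, against 46.8% of all protein-coding genes. In the KAT8-cKO list 41 of 53 (77.4%) were marked, against 43.3%. Both lists marked 39 genes (73.6%), against 35.8% of all genes.

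The share of initiation factor genes marked in WT alone was near that of all genes. WT alone had 6 genes, 11.3% against 11.1% of all genes: Eif1a, Eif1ax, Eif2d, Eif2s2, Eif3g and Eif4e. In the KAT8-cKO list only there were 2, Eif2ak1 and Eif4enif1, or 3.77% against 7.52%. Thus 6 of 45 genes with a WT peak (13.3%) lacked a KAT8-cKO one, against 23.6% of all genes with a WT peak. In the other direction 2 of 41 (4.88%) lacked a WT peak, against 17.4%. The first share depended on the strength required in both lists. It was 23.8% against 31.4% at −log10 q 1.3 or more, and 66.7% against 63.1% at 5 or more. The second was 8.57% against 19.2% at 1.3, and 14.3% (1 of 7 genes) against 23.4% at 5. The strongest WT peaks of initiation factor genes had a median −log10 q of 3.84, against 2.79 over all marked genes.

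**Figure D1:**
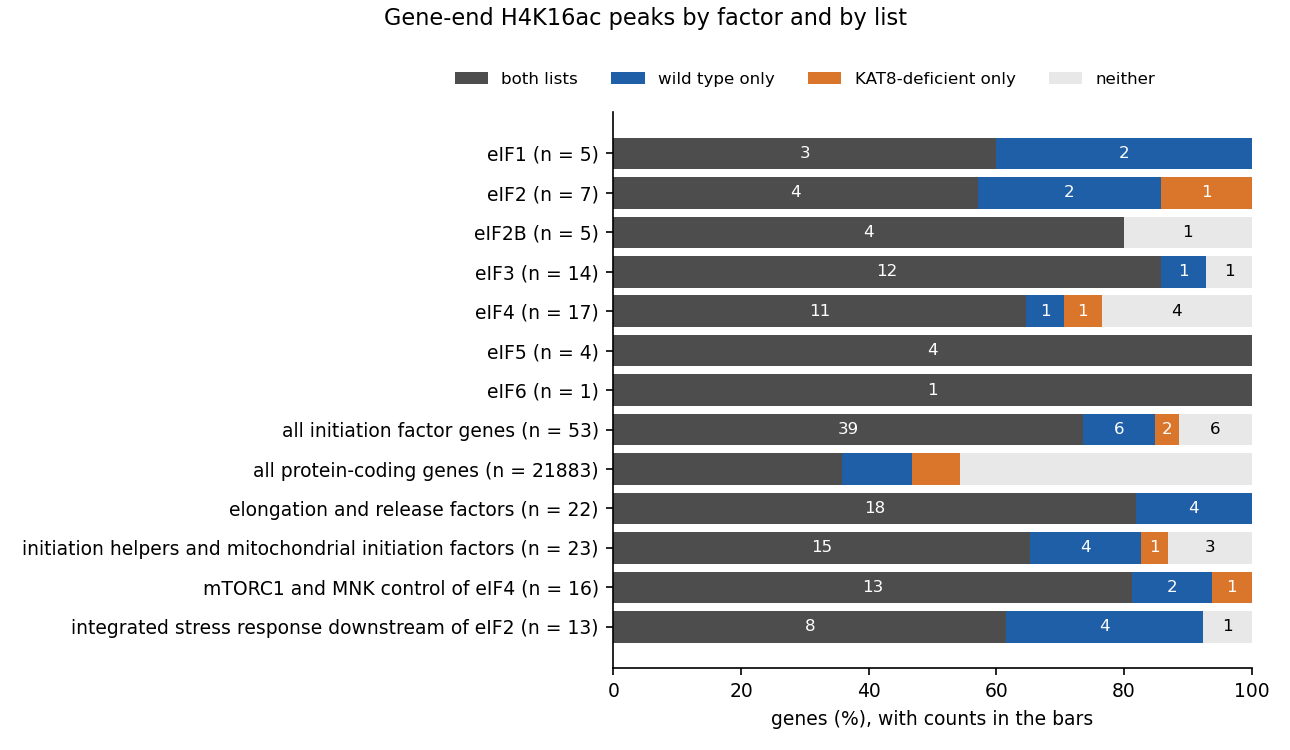
Share of genes (%) with an H4K16ac peak within 1 kb of a gene end in both lists, in WT only, in KAT8-cKO only or in neither, with gene counts in the bars. The upper rows are the factors, the middle rows all 53 initiation factor genes and all 21883 protein-coding genes, and the lower rows other translation genes; 39 of 53 initiation factor genes were marked in both lists.

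The peaks were moderate in strength and lower in KAT8-cKO at most, but not all, of the genes. At the 39 genes marked in both lists the median fold of the strongest peak was 3.83 in WT and 3.42 in KAT8-cKO, against 3.66 and 3.21 over the 7825 genes of all kinds marked in both. The median −log10 q was 3.96 and 2.91, against 3.53 and 2.37. The −log10 q was higher in WT at 28 of 39 genes (71.8%), and the same held at 69.8% of all genes marked in both lists. The fold was higher in WT at 26 of 39 (66.7%), against 70.4%. The share of initiation factor genes with the lower KAT8-cKO value was therefore near that of all genes. These values belong to the strongest peak of each list, and at 7 of the 39 genes (Eif1ad, Eif3i, Eif3l, Eif4ebp1, Eif4ebp2, Eif5a2 and Eif5b) those peaks did not overlap. At the other 32 the −log10 q was higher in WT at 22. Whether the strongest peaks of both lists overlapped was not counted over all genes, so these counts, and those for the gene lists below, have no background value.

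**Figure D2:**
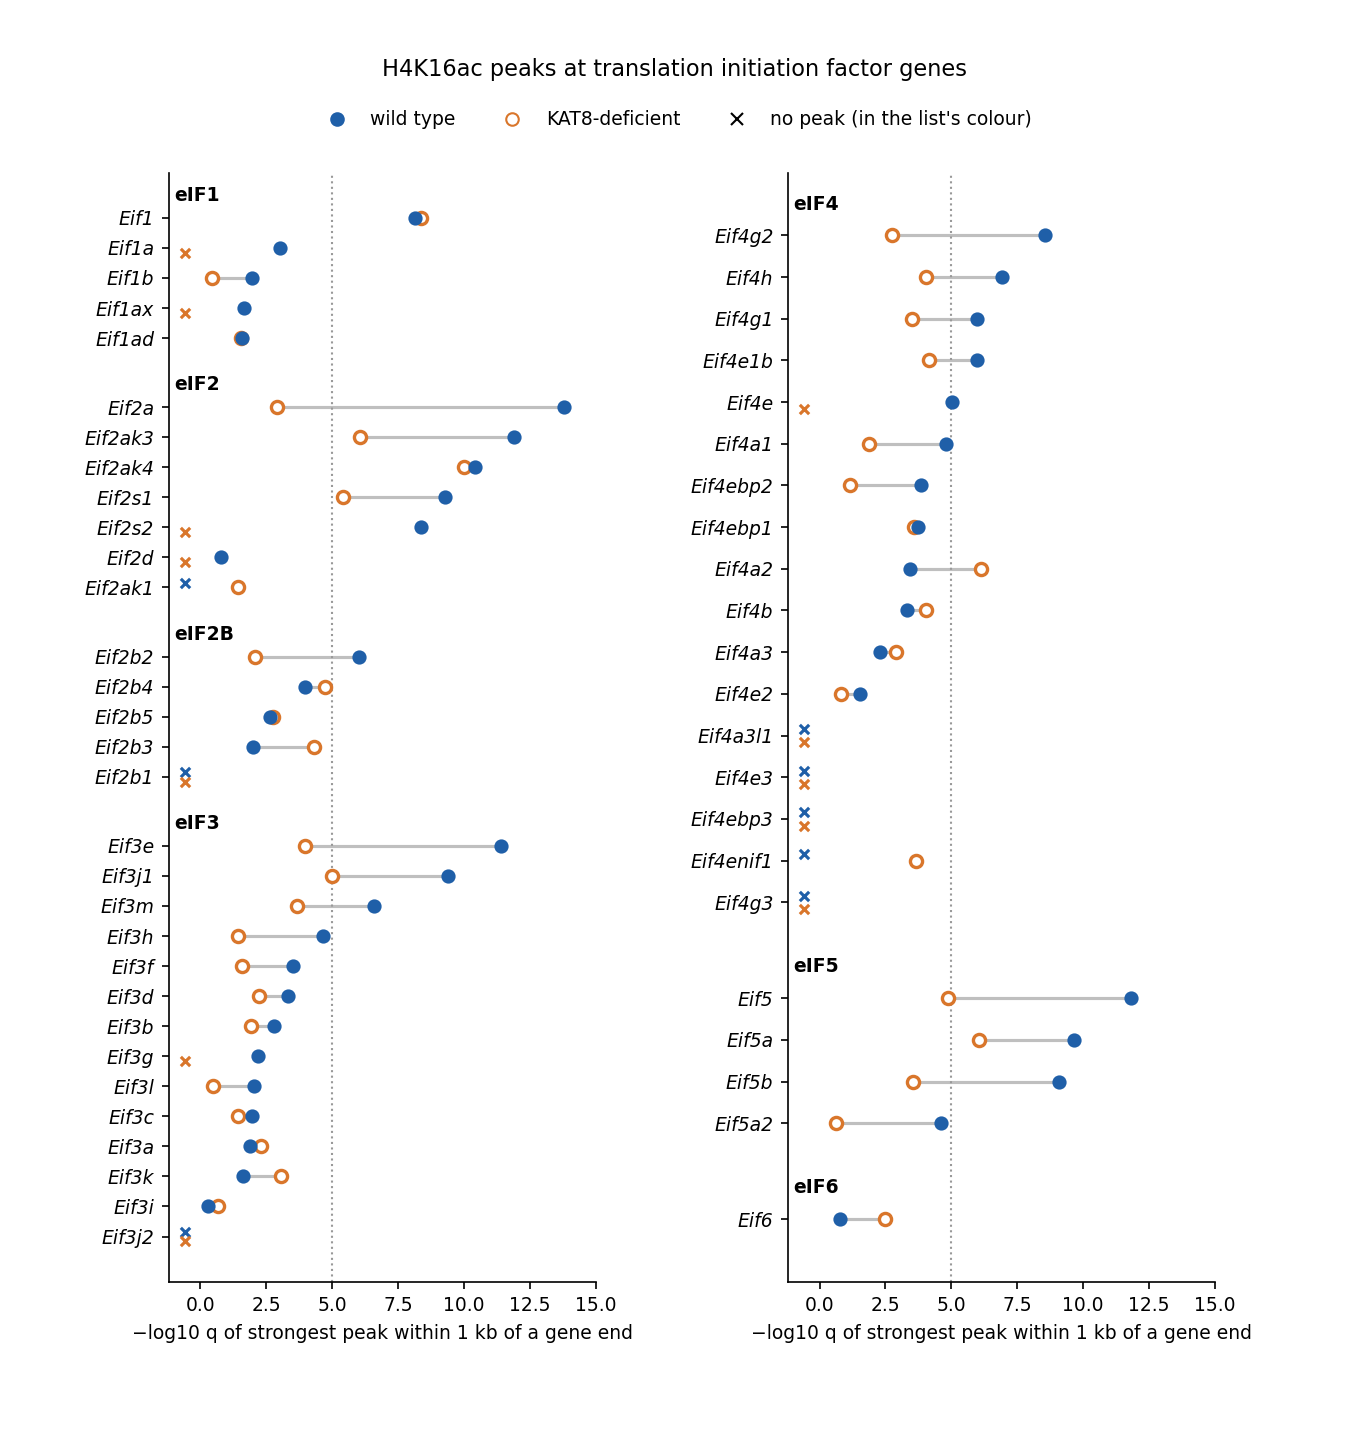
Strength (−log10 q) of the strongest peak within 1 kb of a gene end at each of the 53 genes, by factor and ordered by WT strength, with 1 value per list and no error bar. Filled points are WT, open points KAT8-cKO, crosses mark lists with no peak, and the dotted line stands at 5. Among genes marked in both lists the gaps are widest at Eif2a, Eif3e and Eif5, whereas Eif1 and Eif2ak4 stand at about the same strength in both lists.

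Strong peaks were fewer in KAT8-cKO. At −log10 q 5 or more, 18 of 53 genes were marked in WT (34%, against 12.4% of all genes) and 7 in KAT8-cKO (13.2%, against 5.99%). Both lists reached it at 6 genes (11.3%, against 4.59%): Eif1, Eif2ak3, Eif2ak4, Eif2s1, Eif3j1 and Eif5a. WT alone reached it at 12 genes (22.6%, against 7.84%), and the KAT8-cKO list alone at 1, Eif4a2 (1.89%, against 1.4%). Of the 18 genes strong in WT, 6 (33.3%) were also strong in KAT8-cKO, against 36.9% of all genes strong in WT. At 2 of the 18, Eif2s2 and Eif4e, no KAT8-cKO peak lay in the window (11.1%, against 3.16%). With the strongest 20000 peaks of each list, 38 genes were marked in WT and 32 in KAT8-cKO (71.7% and 60.4%), against 33.0% and 28.0% of all genes.

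**Figure D3:**
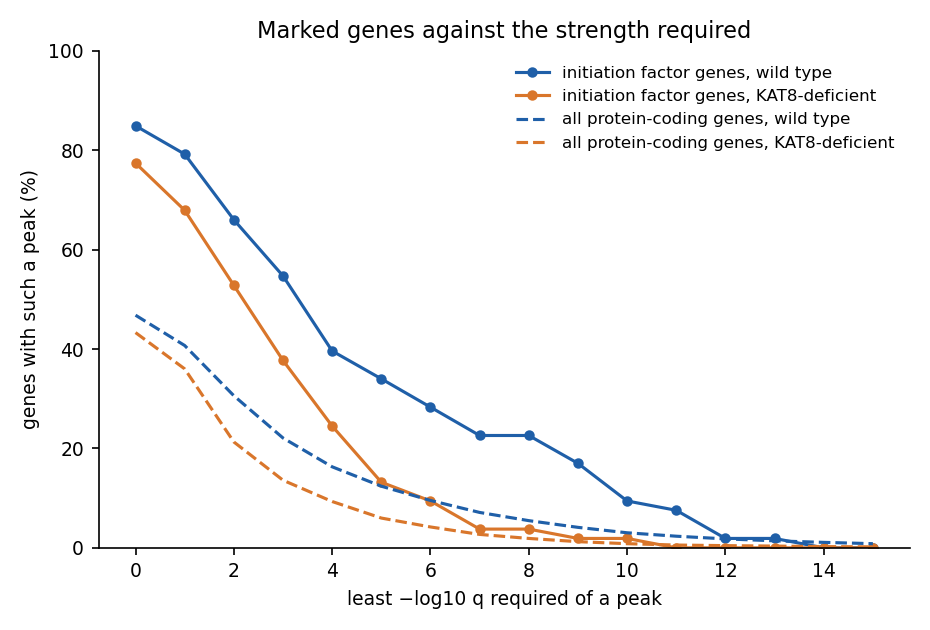
Share of genes (%) with a gene-end peak of at least the −log10 q on the horizontal axis, in WT and in KAT8-cKO. Solid lines with points are the 53 initiation factor genes and dashed lines all 21883 protein-coding genes. At 5 the initiation factor genes stand at 34% in WT and 13.2% in KAT8-cKO, and at 11 at 7.55% and 0%.

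The eIF2 genes had the highest median strength of any factor in WT, −log10 q 9.83 over the 6 marked, and 5.41 over the 5 marked in KAT8-cKO. The 4 eIF5 genes were close behind in WT, with a median of 9.36, and had 4.2 in KAT8-cKO. Eif2s1 encodes the alpha subunit, whose phosphorylation lowers initiation, and Eif2s2 the beta subunit. At Eif2s1 (chr12:78861577-78862292) the fold was 5.38 in WT and 4.48 in KAT8-cKO, with −log10 q 9.29 and 5.41. This peak also reached the window of the neighbouring Atp6v1d. At Eif2s2 (chr2:154892566-154893047) the WT fold was 5.43 at −log10 q 8.37, and no KAT8-cKO peak lay within the window. The nearest KAT8-cKO peak to an end of Eif2s2 was 1827 bp away, outside the gene, with fold 2.56 and −log10 q 0.663. The subunits thus differed, with a peak in both lists at the alpha and in WT only at the beta subunit gene.

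The kinases that phosphorylate eIF2 alpha gave 3 different pictures. Eif2ak3 encodes PERK, the kinase of endoplasmic reticulum stress. Its peak (chr6:70843945-70844693) had fold 5.87 in WT and 4.27 in KAT8-cKO, with −log10 q 11.9 and 6.07. Eif2ak4 encodes GCN2, which senses uncharged tRNA. Its peak (chr2:118388236-118389056) had folds of 6.07 and 5.77 and −log10 q 10.4 and 10, nearly the same in both lists. Eif2ak1 encodes the haem-regulated kinase HRI. In WT its nearest peak was 1438 bp from the start, beyond the window, with −log10 q 0.937. In the KAT8-cKO list a peak of 217 bp began 49 bp inside the gene, with fold 2.99 and −log10 q 1.41.

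The remaining eIF2 symbols are factors outside the eIF2 trimer, described to deliver initiator tRNA by other routes. Eif2a had the highest WT strength of all 53 genes, −log10 q 13.8 at fold 6.71 (chr3:58525645-58526208). In the KAT8-cKO list these were 2.91 and 3.63. The peak reached the window of Serp1 as well, so it cannot be given to Eif2a alone. The WT peak of Eif2d, with fold 2.69 and −log10 q 0.774, did not reach 1.3, and its nearest KAT8-cKO peak was 7765 bp from a gene end.

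The eIF2B genes, which encode the exchange factor that recharges eIF2, went mostly the other way. Of 5, 4 were marked in both lists, against 35.8% of all genes. The −log10 q was higher in WT at 1 of these 4, against 69.8% of all genes marked in both. That gene was Eif2b2 (beta subunit, chr12:85219227-85219694), with folds of 4.29 and 3.04 and −log10 q 6.01 and 2.08. At Eif2b3 (gamma) the folds were 3.19 in WT and 4.03 in KAT8-cKO, with −log10 q 2.01 and 4.30. At Eif2b4 (delta), in a window shared with Snx17, they were 3.29 and 3.80, with −log10 q 3.96 and 4.74. At Eif2b5 (epsilon, the catalytic subunit) the values were nearly equal, with folds of 3.27 and 3.42 and −log10 q 2.65 and 2.77. Eif2b1 (alpha) had no peak in the window, and the nearest lay 3511 bp away in WT and 4852 bp in KAT8-cKO. With 4 genes and 1 library each, this order was not tested against that of other factors.

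**Figure D4:**
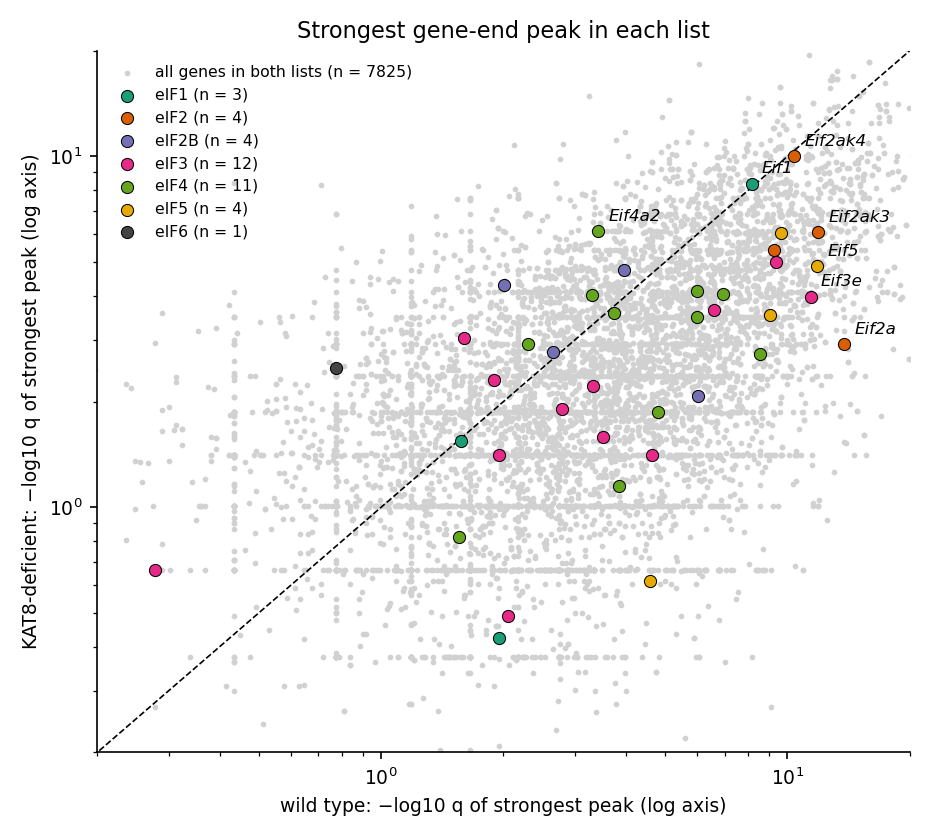
Strength (−log10 q, log axes) of the strongest gene-end peak in WT (horizontal) and in KAT8-cKO (vertical) at genes marked in both lists, 1 point per gene. Coloured points are the 39 initiation factor genes by factor, grey points all 7825 genes, and the dashed line marks equal values; grey points beyond the axes are not drawn, and 7 coloured points compare peaks that do not overlap. All 4 eIF2 and all 4 eIF5 genes lie below the line, and 3 of 4 eIF2B genes above it.

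Among the eIF1 genes both genes of eIF1A lacked a peak in KAT8-cKO. Eif1, whose product guards the choice of the start codon, had nearly equal values at a strong peak (chr11:100319611-100320549). Its fold was 4.49 in WT and 4.51 in KAT8-cKO, at −log10 q 8.16 and 8.36. Eif1a and the X-linked Eif1ax encode eIF1A, which helps the initiator tRNA to bind. Eif1a had a WT fold of 3.70 at −log10 q 3.01, in a window shared with Tmed7, and its nearest KAT8-cKO peak was 4549 bp from the gene. Eif1ax had a WT fold of 3.18 at −log10 q 1.65, and the nearest KAT8-cKO peak was 220733 bp away. Eif1ax is the only X-linked gene of the 53. Of X-linked genes with a WT peak 54.7% had none in KAT8-cKO, against 23.0% of autosomal genes.

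The other eIF1 genes had weak peaks. Eif1b, a paralog of Eif1, had folds of 2.89 in WT and 2.16 in KAT8-cKO, with −log10 q 1.95 and 0.423. Eif1ad, named for its eIF1A domain, had folds of 2.74 and 2.81 and −log10 q 1.57 and 1.54. Its strongest peaks in the lists did not overlap and lay 60 bp apart, in a window shared with Banf1.

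The eIF3 genes were marked in both lists at 12 of 14, against 35.8% of all genes. In WT their strength ranged from −log10 q 0.278 at Eif3i to 11.4 at Eif3e, with a median of 2.78, and in KAT8-cKO from 0.490 at Eif3l to 5.0 at Eif3j1, with a median of 2.06. Eif3e (chr15:43282469-43282952) had folds of 5.99 and 3.86 and −log10 q 11.4 and 3.98. Eif3j1 encodes eIF3j, a loosely bound subunit, and had folds of 5.12 and 4.02 and −log10 q 9.39 and 5.0 (chr2:122028309-122029250). Eif3m had folds of 4.85 and 3.82 and −log10 q 6.58 and 3.66 (chr2:105016739-105017497). These 3 were the eIF3 genes strong in WT. Over the 12 eIF3 genes marked in both lists the −log10 q was higher in WT at 9, against 69.8% of all genes marked in both.

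The other eIF3 genes had weaker peaks. Eif3a, Eif3b and Eif3c encode large core subunits. The −log10 q was 1.90 in WT and 2.30 in KAT8-cKO at Eif3a, 2.78 and 1.91 at Eif3b, and 1.95 and 1.41 at Eif3c. Eif3d, the subunit that can bind the cap of some mRNAs, had 3.33 and 2.21. Eif3h and Eif3f, the subunits with an MPN domain, had 4.64 and 1.41, and 3.51 and 1.59. As at Eif3a, the value was higher in KAT8-cKO at Eif3k, with 1.6 in WT and 3.04 in KAT8-cKO in a window shared with Map4k1, and at Eif3i, with 0.278 and 0.663. At Eif3i neither peak reached −log10 q 1.3, and the peaks lay 22 bp apart.

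A pair of eIF3 genes shows where the window matters. Eif3l counted as marked in both lists, but its WT peak (−log10 q 2.05) lay at the start and its KAT8-cKO peak (0.490) at the 3′ end. Eif3g had a WT peak at its 3′ end only, with fold 2.87 and −log10 q 2.17, and the nearest KAT8-cKO peak was 3658 bp from the gene. Eif3j2, a copy of Eif3j1, had no peak within the window in either list.

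The cap-binding and scaffold genes of eIF4 differed by paralog. Eif4e encodes the cap-binding protein itself, and its WT peak lay over the start (chr3:138526098-138526641), with fold 3.95 and −log10 q 5.04. No KAT8-cKO peak lay within 1 kb of an end of Eif4e. One stood 1203 bp inside the gene (chr3:138527394-138528120), with fold 3.84 and −log10 q 3.49, and only 126 bp from a second annotated start. The lack of a KAT8-cKO peak at Eif4e therefore held for the outer start, and the inner start had one beside it. Eif4e2, a weaker cap-binding paralog, had −log10 q 1.55 and 0.823. Eif4e1b, an oocyte paralog, had 5.98 in WT and 4.14 in KAT8-cKO, with folds of 4.15 and 3.63, from a peak (chr13:54788907-54789631) in the window of Tspan17 too.

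Eif4g1, the main scaffold, had folds of 4.27 and 3.42 and −log10 q 5.98 and 3.49 (chr16:20672765-20673249). Eif4g2, which encodes a scaffold (DAP5) without the eIF4E binding site, had folds of 4.64 and 3.22 and −log10 q 8.54 and 2.74 (chr7:111082864-111083481). It was the strongest WT peak among the eIF4 genes. Eif4g3 had no peak in the window, with the nearest at 2653 bp in WT and 2645 bp in KAT8-cKO, both inside the gene and weak.

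The helicase genes went both ways. Eif4a1, the main eIF4A gene, had folds of 3.74 in WT and 2.98 in KAT8-cKO and −log10 q 4.80 and 1.87, in the window of Senp3 as well. Eif4a2, its close paralog, had the reverse, with folds of 3.83 and 4.70 and −log10 q 3.42 and 6.12 (chr16:23108066-23108528 in WT). It was the only gene of the 53 with −log10 q 5 or more in KAT8-cKO alone. Eif4a3, which encodes a helicase of the exon junction complex, had 2.30 and 2.91. The helicase cofactors differed as well: Eif4h had folds of 4.72 and 3.89 and −log10 q 6.93 and 4.04 (chr5:134639085-134639651), whereas Eif4b had −log10 q 3.30 and 4.03.

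The eIF4E inhibitors, targets of mTOR, were marked in both lists at 2 of 3 genes, against 35.8% of all genes. The strongest peaks of Eif4ebp1 had folds of 3.36 in WT and 3.46 in KAT8-cKO and −log10 q 3.75 and 3.58, but lay 382 bp apart. The KAT8-cKO peak that overlapped the WT one had fold 2.35 and −log10 q 0.663. Eif4ebp2 had folds of 3.93 and 2.70 and −log10 q 3.84 and 1.15, from peaks that did not overlap and lay 328 bp apart. Eif4ebp3 had no peak in the window, but both lists held a strong peak farther from the gene, at 6097 bp with −log10 q 8.25 in WT and at 6112 bp with 8.04 in KAT8-cKO. Eif4enif1 encodes the shuttling protein 4E-T. It had a KAT8-cKO peak near its 3′ end, with fold 3.82 and −log10 q 3.66, and no WT peak in the window. The nearest WT peak was 2721 bp from the gene.

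All 4 eIF5 genes were marked in both lists, against 35.8% of all genes, and all 4 had the lower fold and −log10 q in KAT8-cKO. Over all genes marked in both lists 70.4% had the lower fold and 69.8% the lower −log10 q there. Eif5 encodes the GTPase activator of eIF2, and had folds of 5.67 in WT and 4.2 in KAT8-cKO and −log10 q 11.8 and 4.86 (chr12:111537531-111538388). Eif5b encodes the GTPase that joins the ribosomal subunits, and had folds of 4.98 and 3.64 and −log10 q 9.07 and 3.53. Its WT peak (chr1:37996763-37997514) ended 496 bp before the gene on the side of Txndc9, and its strongest KAT8-cKO peak began 128 bp inside the gene. A further KAT8-cKO peak overlapped the WT one.

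Eif5a encodes eIF5A, the carrier of hypusine, which acts in elongation too. It had folds of 4.83 and 4.14 and −log10 q 9.65 and 6.04 (chr11:69921189-69922082). Its paralog Eif5a2 had 4.22 and 2.45, with −log10 q 4.6 and 0.618, from peaks 76 bp apart that did not overlap. Eif6 keeps the large ribosomal subunit from joining too early. Its peaks were weak in WT, with fold 2.31 and −log10 q 0.774, and somewhat stronger in KAT8-cKO, with 3.03 and 2.5. They lay outside the gene in the windows of Mmp24 and BC029722.

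The same stretches of DNA were mostly called in both libraries. The strongest WT peak was overlapped by at least 1 bp of a KAT8-cKO peak at 34 of 45 genes (75.6%), against 67.9% of all genes with a WT peak. The strongest KAT8-cKO peak was overlapped by a WT peak at 33 of 41 genes (80.5%), against 73.1%. In all, 59 WT and 54 KAT8-cKO peaks lay in the windows of the 53 genes. The strongest peak also reached the window of another gene at 11 of 45 genes in WT and 10 of 41 in KAT8-cKO. Such peaks cannot be assigned to 1 gene, and they were not counted over all genes. Windows that touch no other gene were held by 25 of the 53 genes, against 14836 of 21883 protein-coding genes. The last gene inside the 1 kb limit was Eif4a2 in WT, with its nearest peak 598 bp from an end, and the first outside was Eif2ak1 at 1438 bp. In the KAT8-cKO list these were Eif4e1b at 641 bp and Eif4e at 1203 bp.

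Where the strand was given, most peaks sat near starts. The promoter table gave a start for 41 of the 53 genes. In WT the summit of the strongest peak was within 500 bp of an annotated start at 32 of 36 marked genes with a strand (88.9%), against 74.3% of all such genes. In the KAT8-cKO list it was so at 28 of 33 (84.8%), against 71.2%. Within 1 kb of a start, 20 WT summits lay before it and 15 after it, and 15 and 16 in KAT8-cKO. Over all marked genes with a strand these counts were 3453 and 3439 in WT, and 2838 and 3408 in KAT8-cKO. The strongest peaks had a median width of 567 bp in WT and 456 bp in KAT8-cKO, against 498 and 422 bp over all marked genes.

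**Figure D5:**
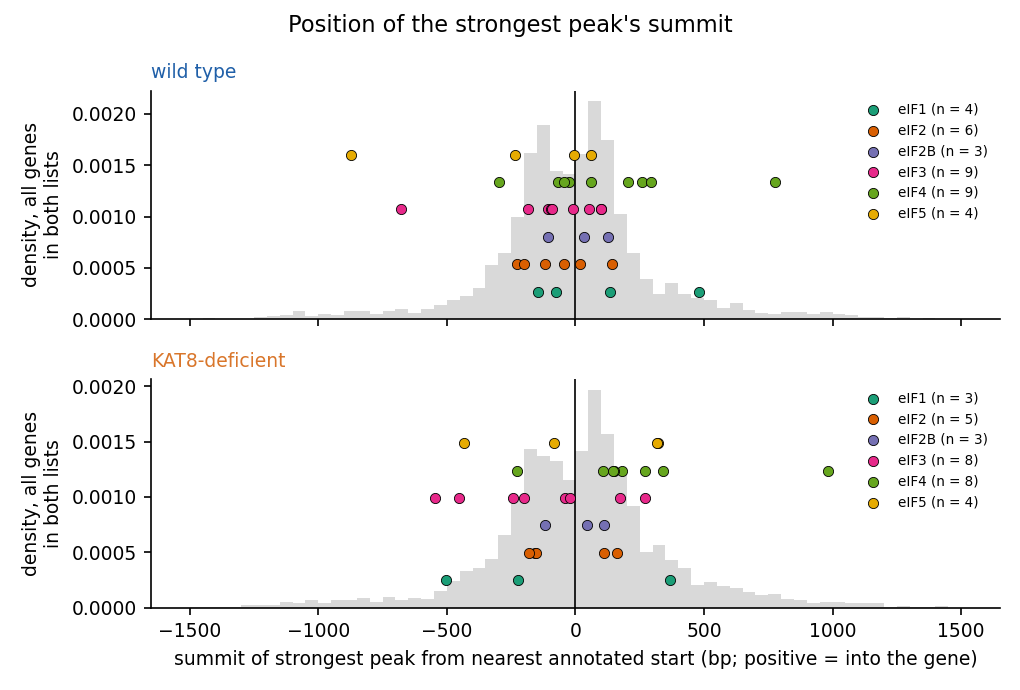
Position of the summit of the strongest peak relative to the nearest annotated start (bp, positive into the gene), for initiation factor genes with a given strand, by factor in rows of points whose height carries no value. Grey bars are the density of all genes marked in both lists, with WT above and KAT8-cKO below. Most points lie within 500 bp of the start in both lists, and Eif3g in WT and Eif3l and Eif4enif1 in KAT8-cKO have a summit beyond the range drawn.

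The genes without any gene-end peak were 6 of 53 (11.3%), against 45.7% of all genes. They were Eif2b1, Eif3j2, Eif4a3l1, Eif4ebp3, Eif4g3 and Eif4e3, a cap-binding paralog with its nearest peaks at 13447 bp in WT and 7083 bp in KAT8-cKO. Eif4a3l1 and Eif3j2 resemble other genes of the set (Eif4a3 and Eif3j1), and the sources used here do not say how reads that match several places were treated.

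The stretches before the starts of these genes were rich in CG, like those of other marked genes. Over the 250 bases before the outermost start, GGGCGG was found at 29 of 41 initiation factor genes (70.7%), against 42.7% of 17491 genes and 62.4% of the 6407 marked in both lists. The ETS letters were found at 10 of 41 (24.4%), against 9.14% and 15.9%. The E-box letters were found at 7 of 41 (17.1%), against 6.65% and 8.10%, and CCAAT at 13 (31.7%), against 36.5% and 39.0%. The YY1 and NRF1 motifs were found at 1 gene each (2.44%), Eif4a1 and Eif3k, against 1.5% and 1.06% of all genes and 2.47% and 2.04% of genes marked in both lists. The median number of CG dinucleotides was 19 per 250 bases, against 10 over all genes, 17 over genes marked in both lists and 3 over genes without a peak. Among the 31 initiation factor genes marked in both lists, GGGCGG was found at 77.4% and the ETS letters at 25.8%. The E-box letters stood at 22.6%, CCAAT at 32.3%, and the YY1 and NRF1 motifs at 3.23% each. The median number of CG dinucleotides at these 31 genes was 20.

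Other genes of translation, from lists of related function, were also mostly marked. Of 22 elongation and release factor genes, 22 were marked in WT (100%, against 46.8% of all genes) and 18 in KAT8-cKO (81.8%, against 43.3%), all 18 in both. At 13 of these 18 the −log10 q was higher in WT, against 69.8% of all genes marked in both. At 1 of the 18, Dhps, the strongest peaks did not overlap and lay 2006 bp apart. The strongest in WT were Eef1g (−log10 q 10.2 in WT and 8.45 in KAT8-cKO, also in the window of Tut1) and Eef1d (9.76 and 3.43, also in that of Tigd5), subunits of the exchange factor of elongation. Dohh, Tufm, Dph1 and Dph2 were marked in WT only, at −log10 q 2.97, 1.86, 0.839 and 0.552. Dohh makes hypusine on eIF5A. The value was higher in KAT8-cKO at Eef2, Abce1, Eefsec, Eef1b2 and Tsfm. At Eef2, the translocase of elongation, it was 5.11 in WT and 14.5 in KAT8-cKO, from a peak at the 3′ end that lay in the window of Dapk3 as well.

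Of 23 helpers of initiation and mitochondrial initiation factor genes, 19 were marked in WT (82.6%, against 46.8% of all genes) and 16 in KAT8-cKO (69.6%, against 43.3%). There were 15 in both lists, 4 in WT only and 1 in KAT8-cKO only, against 35.8%, 11.1% and 7.52% of all genes. The −log10 q was higher in WT at 10 of the 15, against 69.8% of all genes marked in both. It was higher in KAT8-cKO at Paip2b, Paip1, Larp4b, Dhx29 and Denr. At 2 of the 15, Paip1 and Paip2, the strongest peaks did not overlap, and the Paip1 values were nearly equal (4.72 in WT and 4.74 in KAT8-cKO). Gigyf2, part of a repressor complex with the cap-binding paralog 4EHP, had −log10 q 12.8 in WT and 4.04 in KAT8-cKO. Pabpc1, the poly(A)-binding protein, had 8.93 and 8.37. In WT only were Abcf1 (2.26), Mtif3 (1.55), Pdcd4 (0.726) and the X-linked Mcts1 (0.435), and in KAT8-cKO only Larp1 (0.374). Apart from Abcf1 and Mtif3, these single-list peaks did not reach −log10 q 1.3.

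Of 16 genes of mTORC1 and MNK signalling, 13 were marked in both lists, against 35.8% of all genes. The −log10 q was higher in WT at 8 of the 13, against 69.8%. At 1 of the 13, Mtor, the strongest peaks lay 109561 bp apart, the WT one in the window of Exosc10 as well. The MNK kinases phosphorylate eIF4E. Mknk2 had −log10 q 13.9 in WT and 4.43 in KAT8-cKO, and Rps6kb1, the S6 kinase, had 6.35 and 1.87 from a peak also in the window of Tubd1. The 5 genes with the higher value in KAT8-cKO were Deptor (1.18 in WT and 5.94 in KAT8-cKO), Tsc1 (1.1 and 4.43), Rraga (0.774 and 2.84), Lamtor1 (2.09 and 3.25) and Mlst8 (4.37 and 5.14). The inhibitors of the pathway thus went both ways. Deptor and Tsc1 had the higher value in KAT8-cKO, but Tsc2 (2.35 and 1.9) and Akt1s1 (5.41 and 2.88) had it in WT. Mknk1 (6.06) and Rps6kb2 (1.21) were marked in WT only, and Rptor, the mTORC1 subunit that binds substrates, in KAT8-cKO only (2.91).

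Of 13 genes of the integrated stress response, 8 were marked in both lists, 4 in WT only and 1, Atf3, in neither, against 35.8%, 11.1% and 45.7% of all genes. Of the 8, the −log10 q was higher in WT at 5, against 69.8% of all genes marked in both. It was higher in KAT8-cKO at Sesn2 (2.71 and 3.49), Trib3 (0.98 and 1.01) and Asns (0.774 and 1.41). The strongest in WT was Ppp1r15b, a phosphatase subunit that dephosphorylates eIF2 alpha (8.47 in WT and 4.22 in KAT8-cKO). Ddit3, the transcription factor CHOP, had a WT peak of 5.46 at its start, in the window of Mbd6 as well. The only KAT8-cKO peak in its windows (0.490) was a different one, 5310 bp from the WT peak. Cebpg (4.07), Atf5 (3.22), Ppp1r15a (1.76) and Atf4 (0.873), the main effector of the response, were marked in WT only.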

How the data were processed

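H4K16ac was profiled by CUT&Tag in 1 WT and 1 KAT8-cKO library, grouped by the genotype label. The submitters' processing notes name the build mm10 and, without saying what each did, DiffBind, MACS2 2.2.7.1 and Bowtie 0.12.8. The peak lists deposited by the authors give per peak a score (not used here), a fold ratio over the peak caller's background, −log10 values of p and q, and the summit. The sources used here give no settings, control library or read totals.

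Gene positions came from RefSeq (GRCm38.p6), and strands and sequences from its promoter table, which covers 17491 of 21883 genes. A gene was marked if a peak touched the 1 kb on either side of either gene end. The strongest peak was that with the highest −log10 q, ties by fold. Peaks sharing 1 bp counted as shared. Analysis used Python 3.11.15 with pandas 2.3.3. The overlap step was tested on simulated data: it found 1995 of 1995 genes with a planted peak, and 0 of 21883 genes gave another answer in a direct search.

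The members and the gene lists were chosen with earlier results of these data known. All members are accounted for, with full values for those in a single list, those with a −log10 q of at least 5 in either list and the strongest of each factor. Of other lists, the 2 strongest in wild type and those in a single list are named. Atf3, Tsc2, Akt1s1, list genes higher in KAT8-cKO or with strongest peaks that did not overlap, and the paralogs and subunits described beyond this rule were added after their values were seen. With 1 library per group, no test between genotypes and no interval was possible.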

Additional observations from a re-analysis of the deposited data

How the results depend on the processing

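No paired analysis was possible because each group has 1 library. Over the 53 genes the counts marked in WT, KAT8-cKO and both were 45, 41 and 39. They were within 1.5 times of these with windows of 500 bp or 3 kb and over whole genes extended by 5 kb. The same held at −log10 q 1.3 or more and with the strongest 20000 peaks of each list. Around annotated starts only, they were 35, 32 and 31 of the 41 genes that had one, also within 1.5 times. The shares of all genes with a start were 46.7%, 42.7% and 36.4%. With 53 genes in all, these counts could not rise by 1.5 times, so wider windows could not fail this check. With 3 kb and over whole genes WT marked 48 and 50 genes, against 58.1% and 70.9% of all genes (46.8% with 1 kb). KAT8-cKO marked 44 and 49, against 55.1% and 69.0% (43.3% with 1 kb). At −log10 q 5 or more the counts in WT, KAT8-cKO and both were 18, 7 and 6, against 12.4%, 5.99% and 4.59% of all genes. Among the 25 genes whose windows touch no other gene they were 23, 19 and 19. Of all genes with such windows 37.4%, 34.8% and 27.5% were marked. At that threshold and with such windows there are fewer genes or peaks to count. The 6 genes in WT only became 1 over whole genes, 10 at −log10 q 1.3 or more, 12 at 5 and 10 with the strongest 20000 peaks. In the same order 8.23%, 11.6%, 7.84% and 10.7% of all genes were in WT only, against 11.1% in the main setting. The 2 in KAT8-cKO only became 0 with 3 kb, 0 over whole genes and 1 around starts, against 8.35%, 6.29% and 6.29% of all genes. They became 1 at −log10 q 5, 4 with the strongest 20000 peaks and 0 with free windows, against 1.4%, 5.71% and 7.25%. In the main setting 7.52% of all genes were in KAT8-cKO only. The cause of the other differences was not tested.

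By factor at −log10 q 5 or more, WT marked 1 of 5 eIF1, 5 of 7 eIF2 and 1 of 5 eIF2B genes. It also marked 3 of 14 eIF3, 5 of 17 eIF4, 3 of 4 eIF5 and 0 of 1 eIF6 genes, against 12.4% of all genes. KAT8-cKO marked 1 eIF1, 3 eIF2, 0 eIF2B, 1 eIF3, 1 eIF4, 1 eIF5 and 0 eIF6 genes, against 5.99% of all genes. At that threshold WT and KAT8-cKO marked 8 and 6 of 22 elongation and release genes and 8 and 2 of 23 initiation helpers. In the mTORC1 and MNK list they marked 6 and 2 of 16 genes, and in the stress response list 2 and 0 of 13. The shares of all genes were again 12.4% and 5.99%. Overlap of 50% of the shorter peak, and the strongest peak chosen by fold, changed no count by over 1.5 times. Depth is unknown, and so is the limit of detection of each list.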
